A study of Mus musculus with 10 samples.

Results

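The ER-phagy receptors are the proteins that mark pieces of the endoplasmic reticulum (ER) for digestion in the lysosome. Their 10 genes, Retreg1, Retreg2, Retreg3, Rtn3, Ccpg1, Sec62, Tex264, Atl3, Calcoco1 and Cdk5rap3, were taken by name from a table of 51670 mouse gene models. All 10 were found there under these symbols and all 10 passed the filter on low values that left 14727 genes to test.

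A cell removes surplus or damaged ER by wrapping it in a growing autophagosome. The receptors sit in or on the ER and hold on to the autophagosome through short motifs that bind proteins of the ATG8 family, the LC3 and GABARAP proteins on its membrane. Different receptors serve different regions of the ER, such as sheets and tubules, and some are known to be made in larger amounts when unfolded protein builds up.

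The measurements were RNA sequencing of hematopoietic stem cells sorted from the bone marrow of wild-type C57BL/6J mice as CD48-negative, CD150-positive LSK cells (lineage-negative, Sca-1-positive, Kit-positive). There were 5 libraries from mice given DMSO, the solvent, and 5 from mice given Tunicamycin at 2 mg/kg, both into the peritoneum. Tunicamycin blocks N-linked glycosylation and thereby causes unfolded protein to accumulate in the ER, and the series title names ER stress as its subject. The labels give neither age nor sex, nor the time between injection and sorting, nor whether the libraries were made from separate animals. The p-values therefore measure only the spread among these libraries, part of which may be technical.

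Levels are FPKM, that is fragments divided by gene length and library size, so that genes can be compared with each other. Each is given as mean ± SD with n = 5 libraries per group unless stated otherwise. Changes are Tunicamycin minus DMSO of log2(FPKM + 1) values, a scale on which low genes appear to change less than they do, with the standard error (SE) and the Benjamini-Hochberg adjusted p of a limma fit over all 14727 genes. A gene was called higher or lower at an adjusted p under 0.05. In sorted but bulk RNA, more cells of a type and more RNA per cell cannot be told apart.

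Some properties of the libraries touch the results below. The column of Tunicamycin replicate 1 holds whole numbers only, and its genes at 5 to 20 FPKM lay 2.13 FPKM below the other treated libraries at the median, against -0.523 to 1.78 FPKM for those 4. Tunicamycin replicate 5 lay highest by that measure and had the lowest mitochondrial share of the FPKM sum, 2.88% against 4.73% to 7.22% in the other treated libraries and 7.96% to 11.2% after DMSO. Xist stood at 0.1495 and 0.0654 FPKM in DMSO replicates 3 and 5 and at 28.2 to 35.6 FPKM in the other 8 libraries. All 11 listed stem cell markers were tested and 8 were higher after Tunicamycin, with Kit at 83.7 to 125 FPKM after DMSO and 74 to 137 FPKM after Tunicamycin. For this count and the marker counts that follow, the shares over all tested genes were 29.9% higher and 15.4% lower. Markers of other cells were present, and those of several types rose. All 12 macrophage markers were higher, their sum going from 430 to 1017 FPKM per DMSO library to 1513 to 4284 FPKM per treated library. All 8 endothelial markers were higher, their sum going from 37.2 to 76.6 FPKM to 96 to 239 FPKM, as were 5 of 7 tested stromal markers. The macrophage marker Marco and the endothelial marker Cdh5 each reached 1 FPKM in only 1 DMSO library. Both thus passed the filter through the 5 treated libraries alone. No listed marker of these 3 cell types stood at 0 throughout a group. Of 10 erythroid markers 6 were higher and 4 lower. The globin gene Hbb-bs went from 58.1 ± 32.8 to 2782 ± 1066 FPKM and Hba-a2 from 32.7 ± 8.82 to 1171 ± 518 FPKM, while Car1, a carbonic anhydrase gene, went from 2329 ± 889 to 300.3 ± 256 FPKM (all 3 chosen after their values were seen). Of 6 tested megakaryocyte markers 4 were higher. The sum of all 7 listed ones went from 217 to 703 FPKM per DMSO library to 884 to 1412 FPKM per treated library. Of 7 tested granulocyte markers 0 were higher and 0 lower. The sum of the 8 listed ones ran from 301 to 1839 FPKM per DMSO library and from 311 to 1335 FPKM per treated library. Of 3 tested lymphoid markers 2 were higher and 0 lower, and 5 more were too low to test. All 8 listed ones summed to 67.2 to 140.5 FPKM per DMSO library and to 70.1 to 115.3 FPKM per treated library. The part of these cells in the changes below was not tested.

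Of the 10 receptor genes 5 were higher after Tunicamycin, 1 was lower and 4 were not called. The 5 were Calcoco1, Cdk5rap3, Tex264, Ccpg1 and Retreg1, and the 1 was Retreg2. Ccpg1 entered the test through the 5 treated libraries alone, since only 1 DMSO library reached 1 FPKM. Of all genes tested 29.9% were called higher and 15.4% lower. The members' median log2 change was 0.43, beside 0.18 over all genes. For 4 receptor genes every treated library lay above every DMSO library, and for 1 every treated library lay below, where this held for 19.2% and 11.0% of all genes. The calls of Calcoco1, Cdk5rap3, Tex264 and Retreg2 held in all 19 alternative analyses. That of Ccpg1 held in 17 and that of Retreg1 in 5. Without the 2 DMSO libraries that lack Xist, or with no filter on low values, 3 receptor genes were higher. Fewer genes were called there in general, with 3130 of 14157 higher without those libraries and 3375 of 51539 with no filter, against 4403 of 14727.

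**Figure D1:**
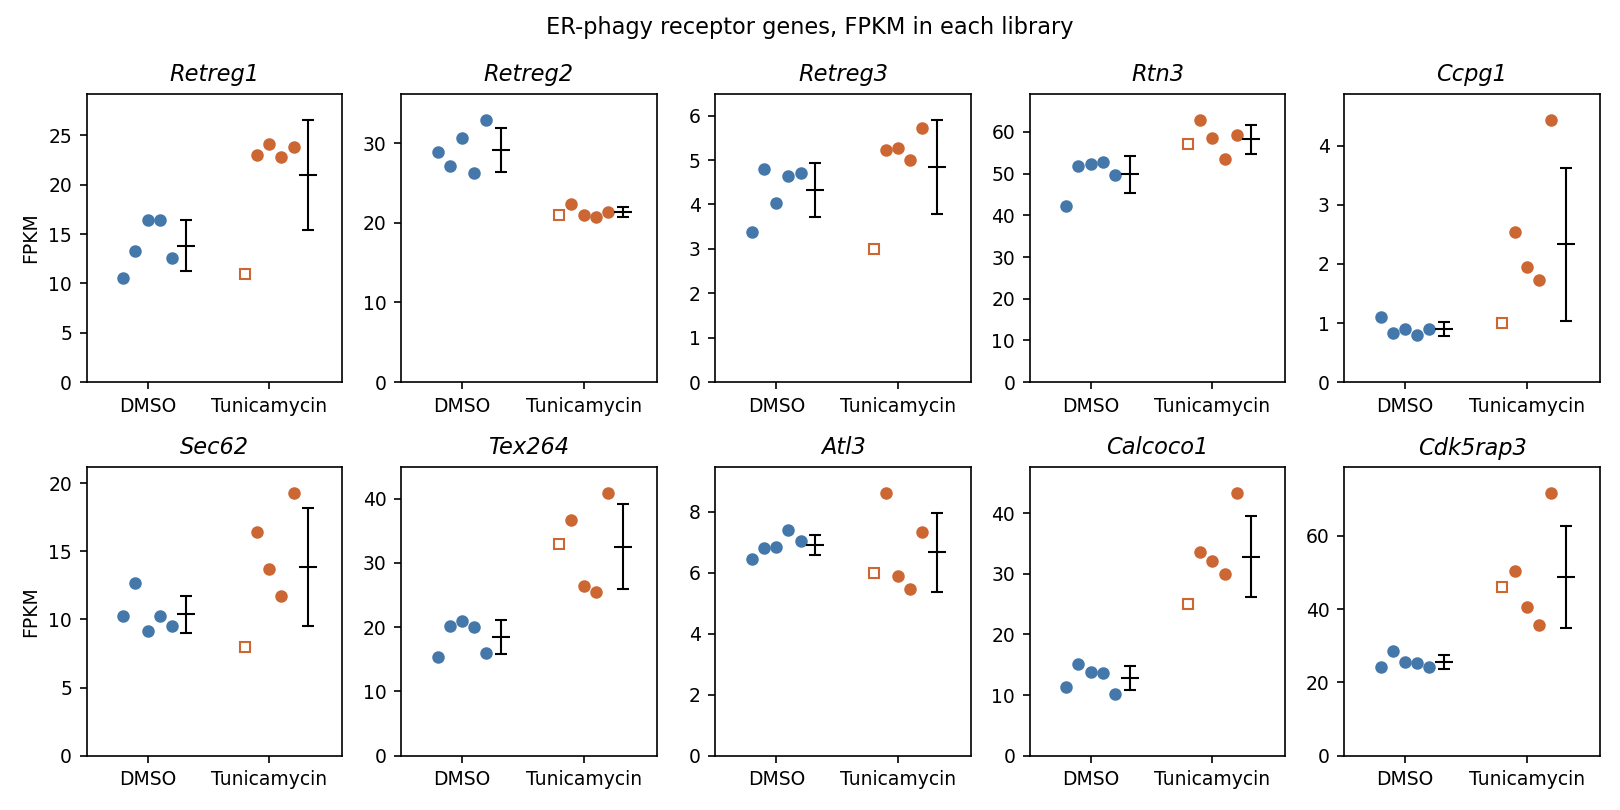
FPKM of each ER-phagy receptor gene (vertical axes, each starting at 0) in 5 DMSO libraries (blue) and 5 Tunicamycin libraries (orange; the open square is Tunicamycin replicate 1, deposited in whole numbers), with mean and SD beside the points. The groups stand apart for Calcoco1, Cdk5rap3, Tex264, Rtn3 and, downwards, Retreg2, and the open square lies far below the other treated points for Retreg1.

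The order of the levels changed between the groups. After DMSO Rtn3 was the most abundant receptor transcript (49.8 FPKM), followed by Retreg2 (29.2), Cdk5rap3 (25.6), Tex264 (18.5), Retreg1 (13.8), Calcoco1 (12.8), Sec62 (10.4), Atl3 (6.91), Retreg3 (4.32) and Ccpg1 (0.907). The ranges of Retreg2 and Cdk5rap3 overlapped, as did those of Tex264, Retreg1, Calcoco1 and Sec62 as neighbours in this order. Retreg1 lay above Calcoco1 in only 3 of 5 libraries. After Tunicamycin Cdk5rap3 (48.9 FPKM), Calcoco1 (32.8) and Tex264 (32.5) followed Rtn3 (58.3), and Retreg2 (21.3) and Retreg1 (20.98) came next. The only neighbours in that order whose ranges did not overlap were Tex264 and Retreg2. Retreg2 lay above Retreg1 in only 1 of 5 treated libraries, Tunicamycin replicate 1 (21 and 11 FPKM). Calcoco1 lay above Tex264 in 3 of 5. Retreg2 made up 17.0 ± 2.21% of the receptors' summed FPKM after DMSO and 8.92 ± 1.12% after Tunicamycin, and Calcoco1 7.42 ± 0.818% and 13.5 ± 1.11% (SD, n = 5 each). The summed FPKM of the 10 genes ran from 154 to 181 per DMSO library and from 211 to 297 per treated library. These shares and sums are descriptions and were not tested.

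Both soluble receptors were higher after Tunicamycin. CALCOCO1 lacks a membrane anchor and reaches the ER by binding the tail-anchored VAP proteins. Its gene (chromosome 15, positions 102706777 to 102722178, minus strand, mm10) was at 11.3, 15.1, 13.8, 13.6 and 10.2 FPKM in DMSO replicates 1 to 5. In Tunicamycin replicates 1 to 5 it was at 25, 33.6, 32.1, 29.9 and 43.3 FPKM. Every treated library thus lay above every DMSO library. The means were 12.8 ± 1.98 and 32.8 ± 6.71 FPKM (SD, n = 5 each), a 2.56-fold difference, with a log2 change of 1.28 ± 0.15 (SE) and an adjusted p of 3.62e-05 in limma. Across the alternative analyses the log2 change stayed between 1.03 and 1.44.

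CDK5RAP3, also called C53, is the other soluble receptor and works together with the UFMylation enzymes UFL1 and DDRGK1, which attach the small modifier UFM1 to ribosomes stalled at the ER. Cdk5rap3 (chromosome 11, positions 96907426 to 96916496, minus strand) was at 24.2, 28.7, 25.6, 25.4 and 24.2 FPKM after DMSO. The treated libraries held 46, 50.6, 40.6, 35.6 and 71.7 FPKM. They lay above all DMSO libraries but spread widely, with Tunicamycin replicate 5 highest. The log2 change was 0.87 ± 0.16 (SE; adjusted p 0.000833 in limma), and 0.72 without that library. A noncoding gene on the opposite strand, D030028A08Rik, shares 227 bases of exon with Cdk5rap3, 5.95% of its exon length, and the labels do not say that strand was used in counting. That gene was not called, with 9.20 ± 0.653 FPKM in the DMSO group and 8.57 ± 1.91 FPKM in the treated group (adjusted p 0.519 in limma).

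Tex264, Ccpg1 and Sec62 encode receptors that cross the membrane without a reticulon domain. TEX264 is a single-pass protein that carries a large part of the ER-phagy induced by starvation. Tex264 (chromosome 9, positions 106658746 to 106685927, minus strand) went from 15.4, 20.1, 20.9, 20.01 and 16.0 FPKM after DMSO to 33, 36.8, 26.5, 25.5 and 40.9 FPKM after Tunicamycin. The groups did not overlap. The mean rose 1.76-fold, with a log2 change of 0.77 ± 0.15 (SE) and an adjusted p of 0.0011 in limma.

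CCPG1 is a receptor whose gene is known to be induced by the unfolded protein response. Ccpg1 (chromosome 9, positions 72985429 to 73016340, plus strand) was the least abundant member, at 1.103, 0.837, 0.902, 0.793 and 0.90 FPKM after DMSO. After Tunicamycin it was at 1, 2.53, 1.95, 1.73 and 4.44 FPKM. Of the treated libraries 4 lay above all DMSO libraries. Tunicamycin replicate 1, without decimals, lay among them. The means were 0.907 ± 0.119 and 2.33 ± 1.30 FPKM (SD, n = 5 each), a 2.57-fold difference, and the log2 change was 0.73 ± 0.23 (SE; adjusted p 0.0197 in limma). It was 0.53 without Tunicamycin replicate 5 and 1.19 with a pseudocount of 0.01 FPKM in place of 1. The adjusted p was 0.0559 with no filter on low values and 0.0689 without the DMSO libraries that lack Xist. Only 1 DMSO library reached 1 FPKM, so the 5 treated libraries alone carried Ccpg1 past the filter. Reads behind these levels were about 125 in the poorest library. Ccpg1 also shares 28.9% of its exon bases with Pigb, an enzyme gene of the GPI anchor pathway on the opposite strand, which was at 2.81 ± 0.235 and 2.99 ± 0.794 FPKM and not called (adjusted p 0.829 in limma). It shares 42.9% with another gene model on its own strand, Gm44503. That model is not among the 51670 deposited ones, so its level is not known.

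SEC62, a part of the protein translocation channel, acts as a receptor when cells return from ER stress to their resting state. Sec62 (chromosome 3, positions 30792875 to 30821263, plus strand) was at 10.2, 12.7, 9.15, 10.3 and 9.54 FPKM in the DMSO libraries and at 8, 16.4, 13.7, 11.7 and 19.3 FPKM after Tunicamycin. The ranges overlapped, since the treated libraries held both the lowest and the highest value. The log2 change of 0.34 had a 95% interval from -0.073 to 0.74 (adjusted p 0.166 in limma). Without Tunicamycin replicate 1 it was 0.50, with an adjusted p of 0.0124.

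The reticulon-type receptors bend the ER membrane with a hairpin domain. RETREG1 (FAM134B) acts on ER sheets, and RETREG2 (FAM134A) and RETREG3 (FAM134C) are its paralogs. Retreg1 (chromosome 15, positions 25843180 to 25973687, plus strand) was at 10.6, 13.3, 16.4, 16.4 and 12.6 FPKM after DMSO. The treated libraries held 11, 23.0, 24.2, 22.8 and 23.9 FPKM. In 4 of them Retreg1 was thus above every DMSO library and nearly uniform, at 23.5 ± 0.65 FPKM (SD, n = 4), while Tunicamycin replicate 1 lay at the low end of the DMSO range. The log2 change over all libraries was 0.53 ± 0.20 (SE; adjusted p 0.0473 in limma). It was 0.74 without Tunicamycin replicate 1 (adjusted p 0.000766), and the call was lost when any of 7 other single libraries was left out, namely DMSO replicate 1, 2 or 5 or Tunicamycin replicate 2, 3, 4 or 5 (adjusted p 0.0797 to 0.115). It was also lost with equal medians (0.29, adjusted p 0.157), with quantile normalization (0.39, adjusted p 0.0896), with no filter on low values (adjusted p 0.133), with pseudocounts of 0.1 and 0.01 FPKM (adjusted p 0.0525 and 0.0559), without the DMSO libraries that lack Xist (adjusted p 0.0939) and with all libraries cut to whole numbers, an alternative chosen after seeing the data (adjusted p 0.0574).

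Retreg2 (chromosome 1, positions 75142778 to 75147913, plus strand) moved the other way. It was at 28.9, 27.1, 30.7, 26.2 and 32.9 FPKM in the DMSO libraries and at 21, 22.3, 21.02, 20.8 and 21.4 FPKM after Tunicamycin. All treated libraries lay below all DMSO libraries, and Tunicamycin replicate 1 was level with the others here. The mean fell from 29.2 ± 2.73 to 21.3 ± 0.616 FPKM (SD, n = 5 each), with a log2 change of -0.43 ± 0.093 (SE) and an adjusted p of 0.00245 in limma. Retreg3 (chromosome 11, positions 101096322 to 101119893, minus strand), the scarce paralog, had 4.32 ± 0.608 FPKM in the DMSO group and 4.84 ± 1.06 FPKM in the treated group. Its log2 change of 0.12 had a 95% interval from -0.21 to 0.45 (adjusted p 0.541 in limma), and it turned negative with equal medians (-0.095) and with quantile normalization (-0.11). Of its treated values 4 lay above all DMSO libraries, at 5.01 to 5.71 FPKM, and that of Tunicamycin replicate 1, listed as 3 FPKM, lay below them all.

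The makeup of the family shifted towards Retreg1. Of the summed FPKM of the 3 paralogs Retreg1 held 29.2 ± 4.39% after DMSO and 43.7 ± 6.93% after Tunicamycin, and Retreg2 61.7 ± 4.84% and 46.1 ± 7.83% (SD, n = 5 each). Without Tunicamycin replicate 1 the treated shares were 46.8 ± 0.982% and 42.6 ± 1.104% (SD, n = 4). The log2 ratio of Retreg1 to Retreg2 within a library, taken on FPKM + 1, was -1.04 ± 0.31 after DMSO and -0.071 ± 0.45 after Tunicamycin, a difference of 0.96. The ratio of Retreg1 to Retreg3 differed by 0.41 and that of Retreg2 to Retreg3 by -0.55. Each of these 3 differences had a two-sided p of 0.0238 in an exact permutation test over all assignments of 5 and 5 libraries (adjusted over the 3, also 0.0238), where the smallest p possible is 0.00794. Any 2 of these ratios fix the last, so the 3 tests are not independent. Without the 2 DMSO libraries that lack Xist the 3 differences were 0.93, 0.44 and -0.48 with adjusted p of 0.0536, 0.0536 and 0.0893 in the same exact test.

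**Figure D2:**
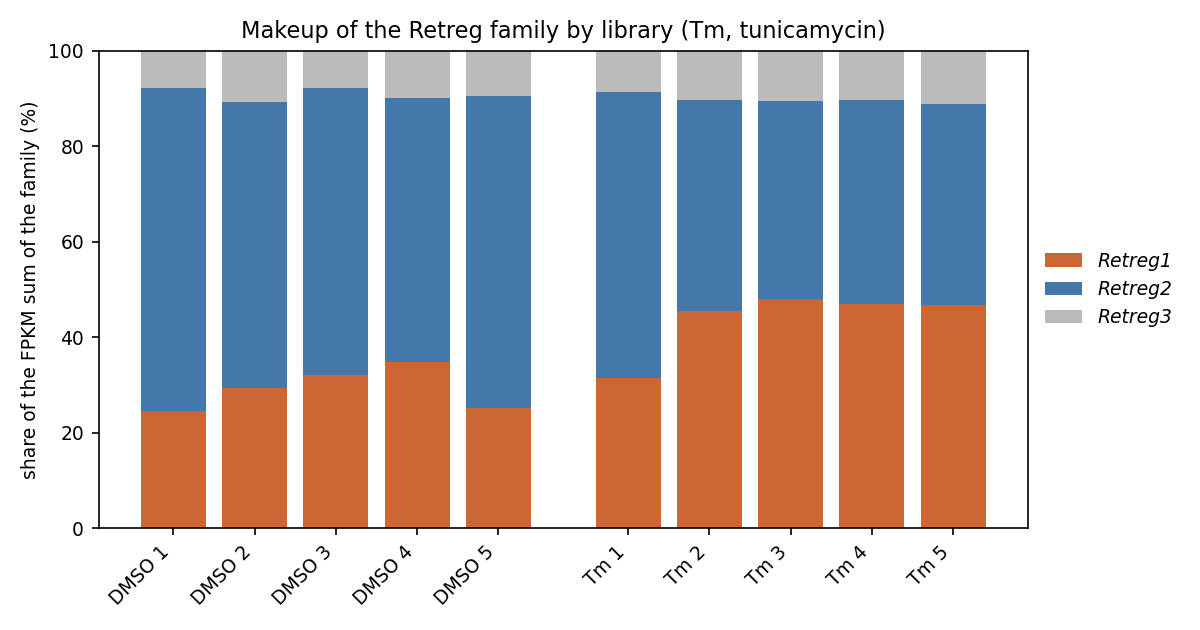
Share of the summed FPKM of Retreg1, Retreg2 and Retreg3 (vertical axis, %) held by each paralog in each of the 10 libraries (1 bar per library). In 4 treated libraries Retreg1 held 45.5% to 47.9%, against 24.6% to 34.7% in the DMSO libraries and 31.4% in Tunicamycin replicate 1.

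RTN3 acts in ER tubules, and only its long isoform is known as a receptor. Rtn3 (chromosome 19, positions 7425901 to 7483281, minus strand) was at 42.3, 51.9, 52.4, 52.9 and 49.6 FPKM in the DMSO libraries and at 57, 62.9, 58.6, 53.4 and 59.4 FPKM after Tunicamycin. The groups did not overlap, but the change missed the threshold over all genes, with a log2 change of 0.22 ± 0.10 (SE; adjusted p 0.0758 in limma). It passed with TPM scaling (0.35, adjusted p 0.0174) and its sign turned with equal medians (-0.031). The coding transcripts annotated for Rtn3 run from 237 to 964 codons, and a level per gene does not tell the long isoform from the short ones.

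ATL3 is an atlastin, a GTPase that fuses ER tubules and binds GABARAP proteins. Atl3 (chromosome 19, positions 7494040 to 7539674, plus strand) was at 6.46, 6.82, 6.84, 7.39 and 7.02 FPKM in the DMSO libraries and at 6, 8.599, 5.90, 5.48 and 7.34 FPKM after Tunicamycin. The treated libraries spread on both sides of the DMSO range. The log2 change was -0.059, with a 95% interval from -0.32 to 0.20 (adjusted p 0.718 in limma). It was 0.056 with TPM scaling, and Atl3 passed as lower with equal medians and with quantile normalization (both -0.29).

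The median gene had a log2 change of 0.18 with the values as deposited, 0.31 with TPM scaling, -0.037 with equal medians and -0.010 with quantile normalization. Relative to the median as deposited, Rtn3 (0.049) and Retreg3 (-0.054) stood near 0, Sec62 at 0.16 and Atl3 at -0.24. By the same measure Calcoco1 stood at 1.11, Cdk5rap3 at 0.69, Tex264 at 0.60, Ccpg1 at 0.55, Retreg1 at 0.36 and Retreg2 at -0.61.

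**Figure D3:**
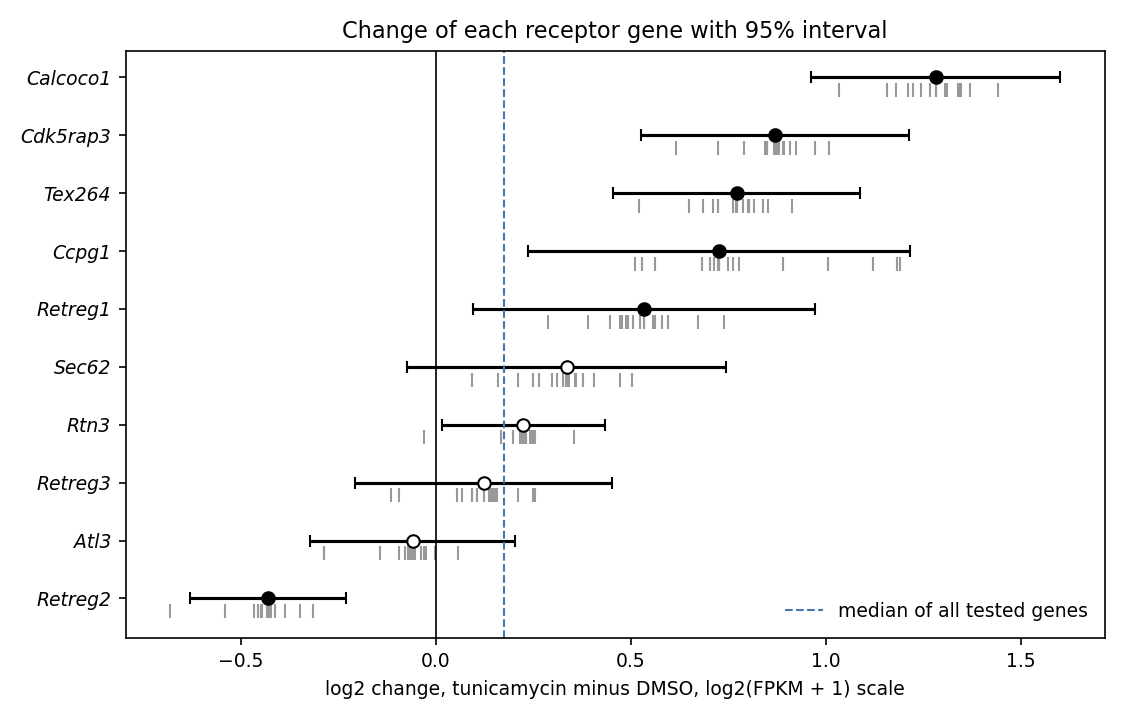
Log2 change of each receptor gene, Tunicamycin minus DMSO, on the log2(FPKM + 1) scale (horizontal axis), with its 95% interval from limma (points; filled where the adjusted p is under 0.05). Grey ticks are the 19 alternative analyses and the dashed line is the median of all tested genes, 0.18; the ticks of Calcoco1 stay between 1.03 and 1.44 and those of Retreg2 between -0.68 and -0.31.

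Single treated libraries went with several receptor genes at once. Tunicamycin replicate 5 had the highest value of its group for 6 members (Retreg3, Ccpg1, Sec62, Tex264, Calcoco1 and Cdk5rap3). Tunicamycin replicate 1 had the lowest for 5 (Retreg1, Retreg3, Ccpg1, Sec62 and Calcoco1) and Tunicamycin replicate 4 for the other 5. Genes at 5 to 20 FPKM in general differed from the other treated libraries by a median of 1.78 FPKM in Tunicamycin replicate 5. That median was -2.13 FPKM in Tunicamycin replicate 1 and -0.523 FPKM in Tunicamycin replicate 4. Such ranks were not counted over all genes. Without Tunicamycin replicate 5, which also had the lowest mitochondrial share, the calls of Calcoco1, Cdk5rap3, Tex264, Ccpg1 and Retreg2 held and that of Retreg1 was lost.

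The promoter windows of 4 members are shown, those of the gene with the smallest adjusted p, of the gene that fell, of the known stress-induced gene and of the only member with a match to the amino acid response motif below. Each runs from 250 bases before to 50 after a start site in RefSeq (build GRCm38.p6), on the gene's own strand, with the motif matches in capitals. They lie at chr15:102722129-102722428 (Calcoco1), chr1:75142536-75142835 (Retreg2), chr9:72985254-72985553 (Ccpg1) and chr11:96916465-96916764 (Cdk5rap3, the upstream of 2 listed starts, whose transcribed bases were not found in a GENCODE transcript).
Calcoco1: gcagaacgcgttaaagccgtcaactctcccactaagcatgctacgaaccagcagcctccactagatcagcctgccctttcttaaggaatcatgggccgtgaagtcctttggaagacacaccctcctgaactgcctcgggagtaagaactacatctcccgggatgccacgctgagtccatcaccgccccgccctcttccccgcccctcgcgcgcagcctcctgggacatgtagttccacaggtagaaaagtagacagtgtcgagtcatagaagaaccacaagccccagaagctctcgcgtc
Retreg2: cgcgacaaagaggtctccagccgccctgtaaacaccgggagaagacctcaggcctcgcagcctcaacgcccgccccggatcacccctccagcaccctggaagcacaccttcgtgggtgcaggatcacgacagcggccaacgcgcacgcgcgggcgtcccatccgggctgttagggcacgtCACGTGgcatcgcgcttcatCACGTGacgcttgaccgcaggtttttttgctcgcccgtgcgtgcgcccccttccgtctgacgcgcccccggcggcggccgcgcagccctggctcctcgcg
Ccpg1: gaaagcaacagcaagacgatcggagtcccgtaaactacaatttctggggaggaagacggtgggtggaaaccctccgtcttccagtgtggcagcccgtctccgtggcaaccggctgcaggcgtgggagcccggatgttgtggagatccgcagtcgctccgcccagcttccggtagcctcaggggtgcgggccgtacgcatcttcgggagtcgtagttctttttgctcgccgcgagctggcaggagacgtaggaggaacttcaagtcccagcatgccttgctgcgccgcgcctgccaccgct
Cdk5rap3: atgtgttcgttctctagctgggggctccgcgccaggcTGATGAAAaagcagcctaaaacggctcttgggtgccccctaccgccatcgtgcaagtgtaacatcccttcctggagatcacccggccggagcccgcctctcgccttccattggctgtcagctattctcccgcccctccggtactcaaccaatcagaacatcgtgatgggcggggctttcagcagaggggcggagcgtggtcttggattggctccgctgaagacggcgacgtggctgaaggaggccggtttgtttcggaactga

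The letters of 5 motifs were searched on both strands in the 15 windows of the 10 members. The motifs of the ATF6 and XBP1 factors were ERSE (CCAAT, then 9 bases of any kind, then CCACG), ERSE-II (ATTGG, any base, CCACG) and UPRE (TGACGTGG). No member window held these letters, which occur in 0.119%, 0.0365% and 0.676% of 32851 windows. TGATGNAA, the core that ATF4 and C/EBP factors including CHOP share, was found in 1 window, at base -213 from the upstream start of Cdk5rap3 as TGATGAAA, and in 3.97% of all windows. CACGTG is the palindrome that TFEB and TFE3 but also MYC and other factors bind. It was found in 3 of the 15 member windows, from 3 members, and in 7.15% of all windows. Retreg2 held it at -70 and -50, Sec62 at -32 and a downstream start of Retreg1 at -188. UPRE shares its letters ACGTG with the palindrome, and ERSE and ERSE-II both end in CCACG. A match of letters is not evidence that a factor binds there, and these data hold no measurement of binding.

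The other genes of the pathway were read from 5 lists. Of the 10 genes of the ATG8 family and the ULK1 and FIP200 complex, which build the autophagosome and hold several of the receptors, 10 were higher, where 29.9% of all genes were, with a median log2 change of 0.65 beside 0.18 for all genes. Map1lc3a (LC3A) went from 16.9 ± 2.54 to 55.8 ± 15.0 FPKM (SD, n = 5 each; log2 change 1.63). Gabarapl1, a partner of several receptors, rose from 84.6 ± 10.3 to 152 ± 20.2 FPKM (0.83), and the kinase gene Ulk2 from 3.16 ± 0.344 to 6.14 ± 0.758 FPKM (0.78). For 8 of the 10 every treated library lay above every DMSO library, as for 19.2% of all genes. With equal medians 8 of the 10 were higher, where 3037 of 14727 genes were. Without the DMSO libraries that lack Xist 9 were, where 3130 of 14157 genes were. The 12 macrophage markers were also all higher after Tunicamycin, and their part here was not tested.

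Of the 7 UFMylation genes 4 were higher (57.1%, against 29.9% of all genes) and 0 lower (15.4% of all genes). Ddrgk1, the ER anchor of the ligase that works with CDK5RAP3, went from 29.7 ± 4.52 to 66.9 ± 17.3 FPKM (log2 change 1.12), and the ligase gene Ufl1 from 7.97 ± 0.454 to 13.2 ± 2.13 FPKM (0.65). As for Cdk5rap3, both were highest in Tunicamycin replicate 5. Ufm1 itself, the modifier, was not called, at 5.51 ± 0.491 and 5.31 ± 0.909 FPKM (chosen after its values were seen).

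Of 12 tested partners of the receptors and other autophagy receptors 5 were higher (41.7%, against 29.9% of all genes) and 0 lower (15.4% of all genes). Sqstm1 (p62), a receptor for ubiquitinated cargo, went from 94.8 ± 6.79 to 312 ± 43.3 FPKM (log2 change 1.70), and Nbr1 and Tax1bp1, receptors of the same kind, had log2 changes of 0.56 and 0.38. The call of Tax1bp1 was lost with equal medians (0.12, adjusted p 0.234 in limma) and without the DMSO libraries that lack Xist (adjusted p 0.0578). Of the VAP proteins that anchor CALCOCO1, Vapb was higher (1.74 ± 0.248 to 3.43 ± 1.46 FPKM) and Vapa was not called (57.4 ± 5.35 and 66.6 ± 11.2 FPKM). The chaperone calnexin, a partner of RETREG1, was not called either (Canx, 181 ± 44.0 and 139 ± 15.6 FPKM, adjusted p 0.0832 in limma). Vapb, Vapa and Canx were chosen after their values were seen. With equal medians 3 of this list were higher and 1 lower, and without the 2 DMSO libraries that lack Xist 2 were higher. Over all 14727 genes 3037 were higher and 3972 lower with equal medians, and 3130 of 14157 were higher without those libraries.

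Of 14 tested ER-shaping genes, relatives of the reticulon and atlastin receptors among them, 5 were higher and 2 lower. The share of this list called higher, 35.7%, was near the 29.9% of all genes, where 15.4% were lower. The rises included Rrbp1, a ribosome-binding protein of ER sheets (9.63 ± 1.58 to 22.4 ± 5.55 FPKM, log2 change 1.12), and the hairpin protein genes Reep2 (0.89) and Reep3 (0.81). Reep6, of the same family, fell from 9.65 ± 3.05 to 4.05 ± 0.683 FPKM (log2 change -1.04), and Lnpk, lunapark, which stabilises the junctions of tubules, from 5.90 ± 0.639 to 4.29 ± 0.311 FPKM (-0.38). Both had no overlap between the groups. The call of Lnpk was lost with no filter (adjusted p 0.0507 in limma), with TPM scaling (-0.30, adjusted p 0.0545) and without the DMSO libraries that lack Xist (adjusted p 0.072). With equal medians 3 of this list were higher and 5 lower, where 3037 of all 14727 genes were higher and 3972 lower.

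Of 7 transcription factor genes of ER stress and lysosome biogenesis 6 were higher (85.7%, against 29.9% of all genes) and 0 lower (15.4% of all genes). Ddit3, which encodes CHOP, had a log2 change of 2.40, Xbp1 of 1.25 and Atf6 of 0.72. Tfeb (1.39 ± 0.196 to 3.22 ± 0.659 FPKM, 0.81) and Tfe3 (5.55 ± 0.554 to 7.502 ± 0.479 FPKM, 0.38), which drive lysosomal genes, were also higher (both chosen after their values were seen), and Mitf, their relative, was not called.

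**Figure D4:**
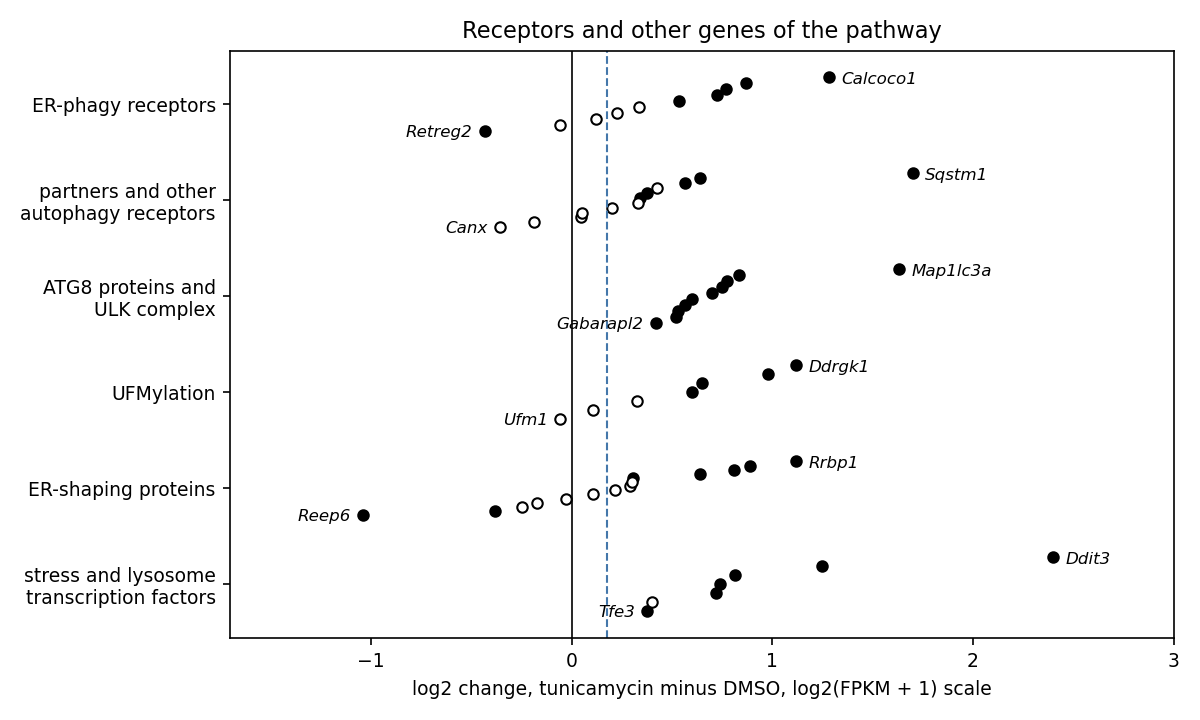
Log2 change, Tunicamycin minus DMSO, on the log2(FPKM + 1) scale (horizontal axis) of every tested gene of the receptor list and of 5 other lists (rows; 1 point per gene, filled where the adjusted p is under 0.05, with the lowest and highest gene of each list named). The dashed line is the median of all tested genes; all 10 points of the ATG8 and ULK row are filled and lie to its right, while the receptors run from Retreg2 at -0.43 to Calcoco1 at 1.28.

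By likeness over the 10 libraries, measured as the Euclidean distance of log2(FPKM + 1) values from the DMSO mean of each gene, the genes nearest to Calcoco1, the member with the smallest adjusted p, were Ypel5 (distance 0.287), Lmbr1l (0.415), Tnip2 (0.418), Flot1 (0.424) and Birc3 (0.425). Ypel5 went from 15.0 ± 1.79 to 38.2 ± 6.03 FPKM. These distances describe the 10 libraries and were not tested.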

How the data were processed

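The authors deposited one table with an FPKM column for each of 10 libraries. Bowtie 0.12.9 and Cufflinks 2.1.1 are listed, beside HTSeq, DESeq2 and build mm10, in the submitters' processing notes. What each tool did, and the annotation, is not given in the sources used here. RNA was amplified by Geo-seq and made into libraries with a TruePrep kit, per the labels' protocols. Of the columns 9 carry 4 decimals, and the deposited whole-number column of Tunicamycin replicate 1 is entered as a score, since nothing states how its values were made whole, and was used as FPKM.

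The files hold no counts. In genes with a single transcript, FPKM times exon length (GENCODE release M21, same build) lay within 0.05 reads of a whole number for 99.5% to 99.7% of low values in those 9 libraries, which gives about 18500000 to 60400000 reads each. Members then rested on about 125 to 17109 reads per library. Of the low read numbers recovered in this way 68.5% to 80.5% were even, so separate fragments may be fewer than these reads, which was not tested. The lengths come from another annotation than the authors' unnamed one, so no count test was run.

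Identifiers were matched to symbols for 51389 of 51670 models. Genes with at least 1 FPKM in at least 5 libraries were tested with limma 3.58.1 (R 4.3.3; trend, group as the only term) on log2(FPKM + 1), with Benjamini-Hochberg adjustment. The script was tested on simulated data. Ratios were compared by exact permutation. Gene models and positions are from GENCODE M21 and promoters from RefSeq; for 13 of 15 windows the bases after the start were found in a GENCODE transcript. Python 3.11.15, pandas 2.3.3 and matplotlib 3.10.9 were used for tables and figures. Alternatives changed the pseudocount, filter, scaling, block and libraries.

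Members and lists were chosen with earlier results of these data known. All 10 members are named, and from each other list up to 3 genes per direction with the smallest adjusted p. One gene that this rule names is not reported here. Replicate numbers are shared between groups, but the deviations of same-numbered libraries correlated at 0.0207 to 0.248, so they were not taken as pairs.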

Additional observations from a re-analysis of the deposited data

Results flagged for a closer look

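In 60 groups of 5 values, those of the members, the named pathway genes and the 3 Retreg ratios, 7 held a value far from the other 4, where chance gives about 1 in 20. Tunicamycin replicate 1 was the library in 6 of them. It stood low for Retreg1 (11 FPKM, the others 22.8 to 24.2), for Retreg3 (3 FPKM, the others 5.01 to 5.71) and for Tax1bp1 (54 FPKM). Its log2 ratio of Retreg1 to Retreg2 was -0.87 and that of Retreg1 to Retreg3 1.58, both below the other treated libraries, and that of Retreg2 to Retreg3 was 2.46, above them. These 3 ratios share their genes with the first 2 flags. The last was Atf6 in Tunicamycin replicate 2 (8.76 FPKM, high).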

How the results depend on the processing

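Calcoco1, Cdk5rap3, Tex264 and Retreg2 kept their direction and call in all 19 alternatives. Retreg1 kept its direction in all 19 and its call in 5, and Ccpg1 its call in 17. Signs turned for Rtn3 with equal medians (-0.031), for Retreg3 with equal medians (-0.095) and quantile normalization (-0.11), and for Atl3 with TPM scaling (0.056). The cause was not tested. Of all calls 66.1% were higher, against 76.4% with TPM scaling, 43.3% with equal medians (3972 genes lower) and 47.6% with quantile normalization (3767 lower). Receptor genes higher were 3 with no filter and 3 without the DMSO libraries that lack Xist, and 2 were lower with equal medians or quantile normalization. Over all genes 3375 of 51539 were higher with no filter, 3130 of 14157 without those DMSO libraries and 3037 of 14727 with equal medians. Those lower were 1752, 1614 and 3972 in the same order, and 1693 of 14727 with TPM scaling. Among partners and other autophagy receptors 3 were higher with equal medians and 2 without the DMSO libraries that lack Xist; 1 was lower with equal medians, and 0 to 1 when single libraries were left out (1 without DMSO replicate 2). Of UFMylation genes 1 was lower with equal medians and 1 with quantile normalization. Of ER-shaping genes 3 were higher with equal medians, and the lower ones were 5 with equal medians and 1 each with no filter, TPM scaling or without the DMSO libraries that lack Xist. The Retreg ratio differences without those libraries were 0.93, 0.44 and -0.48, with adjusted p of 0.0536, 0.0536 and 0.0893 in the exact permutation test.

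With the replicate number as a block, 4553 genes were higher and 2248 lower, 5 receptor genes were higher and 1 lower, no member's call changed, and no count of calls moved by over 1.5 times. For the ratios, exchanging groups within a number left 0.96, 0.41 and -0.55, with p of 0.0625, the smallest this exact permutation test can give. Of the same-numbered pairs 2 of 5 correlated best with their own number. Cutting all libraries to whole numbers, chosen after seeing the data, gave Retreg1 an adjusted p of 0.0574 and Rtn3 one of 0.0288. Other alternatives changed pseudocounts to 0.1 and 0.01 FPKM. Ccpg1 and Retreg3 rest on the fewest reads (about 125 and 268 in the poorest library).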

Other observations

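Several genes of the pathway were too low to test. Calcoco2, a paralog of Calcoco1, had 0.165 ± 0.146 FPKM in the DMSO group and 0.298 ± 0.284 FPKM in the treated group (SD, n = 5 each). Of the reticulons, Rtn1 was at 0.21 ± 0.145 and 0.321 ± 0.197 FPKM and Rtn2 at 0.157 ± 0.058 and 0.249 ± 0.155 FPKM, while Rtn4 rose from 6.62 ± 1.72 to 10.7 ± 1.095 FPKM (log2 change 0.64, adjusted p 0.00342 in limma). Of the atlastins, Atl1 was at 0.66 ± 0.141 and 0.602 ± 0.358 FPKM, so that Atl2 (10.9 ± 1.12 and 10.6 ± 0.965 FPKM, not called) and Atl3 were the atlastin genes expressed at a testable level. These genes were chosen after their values were seen.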
